A study of Mus musculus with 2 samples.

Results

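The Otx2 locus was taken as a 1.05 Mb interval of mouse chromosome 14 (chr14:48500000-49549999, build mm9) that holds Otx2 and its proximal flanks. Its members were the fixed 1 kb windows with at least 3 array probes whose midpoints lay inside the interval. There were 955 such windows among the 14947 of the whole array (6.39%), resting on 10970 of 170542 probes. Of the 1050 windows in the interval, 95 had fewer than 3 probes and gave no value.

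Rad21 was profiled by chromatin immunoprecipitation on Agilent tiling arrays (ChIP-chip), a method that reads precipitated DNA against input DNA on probes along the genome. The samples formed 1 group of 2 arrays, replicates 1 and 2, each from 1 T75 flask of RAG cells, a mouse renal adenocarcinoma line that the study uses as its Pax6-OFF cells. The ChIP (antibody ab992) and input DNA were amplified and then reamplified before labelling. Per the labels, Cy3 carried input and Cy5 carried ChIP DNA on both arrays, without a dye swap, and no control array was analysed here.

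Rad21 is the kleisin subunit of cohesin, the ring complex that holds sister chromatids together and extrudes chromatin loops. Cohesin is known to accumulate where CTCF, a zinc finger protein, sits on its DNA motif, and the strand of that motif is used to read which side of the site a loop lies on. Otx2 is a homeodomain transcription factor gene known for its part in forebrain and eye development and for its long flanks with few genes.

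The ratio is given here as log2 Cy3 over Cy5, the direction of the value table the authors deposited and the opposite of what the labels give for ChIP over input. Values above 0 are therefore called higher in Cy3 and values below 0 higher in Cy5, with no statement of which of them is ChIP. In that direction 8 stretches of the locus, numbered regions 1 to 8 from low to high coordinate, passed a threshold on the running median of both arrays (0.63 on the log2 scale). The corresponding threshold for Cy5 was -1.1, and 0 regions passed it.

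The sequences that go with these regions are those around the best match to the CTCF core motif, a stretch of 12 bases, searched on both strands with at most 1 mismatch. They are shown for the regions called on each array alone that had a match within 500 bp of the summit, together with the 1 exact match of the locus that lay in no region. Each is 60 bases of the reference genome (NCBIM37, the same build as mm9), written 5′ to 3′ on the strand of the motif, with the matched bases in capitals. The match of region 2 has 1 mismatch and the others have 0.
Region 2 (chr14:48767531-48767590, minus strand): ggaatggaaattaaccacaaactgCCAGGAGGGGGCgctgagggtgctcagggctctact
Region 3 (chr14:48789821-48789880, minus strand): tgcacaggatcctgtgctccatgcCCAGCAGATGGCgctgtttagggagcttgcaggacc
Region 5 (chr14:48986939-48986998, minus strand): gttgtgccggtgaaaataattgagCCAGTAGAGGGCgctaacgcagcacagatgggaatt
Region 6 (chr14:48990167-48990226, plus strand): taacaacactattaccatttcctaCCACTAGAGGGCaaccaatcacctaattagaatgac
Region 7 (chr14:49113734-49113793, minus strand): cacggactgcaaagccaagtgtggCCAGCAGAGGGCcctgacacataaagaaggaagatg
Region 8 (chr14:49143960-49144019, plus strand): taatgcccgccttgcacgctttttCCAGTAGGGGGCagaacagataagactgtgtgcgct
Outside the regions (chr14:49179664-49179723, minus strand): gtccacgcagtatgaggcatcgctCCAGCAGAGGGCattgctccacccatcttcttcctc

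Region 7 and the site outside the regions carried the same 12 core bases, and their values are set side by side further on. Otx2 lies on the minus strand with its outermost start site at position 49287319, so lower coordinates are on its 3′ side. All 8 regions lay on that side, from -612.5 to -143.3 kb of the start site. That side is also the longer part of the interval, which starts at 48500000 and ends at 49549999. The next region on the array, from 49605058, lay on the 5′ side past the end of the interval. No comparison of the sides was therefore made.

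**Figure D1:**
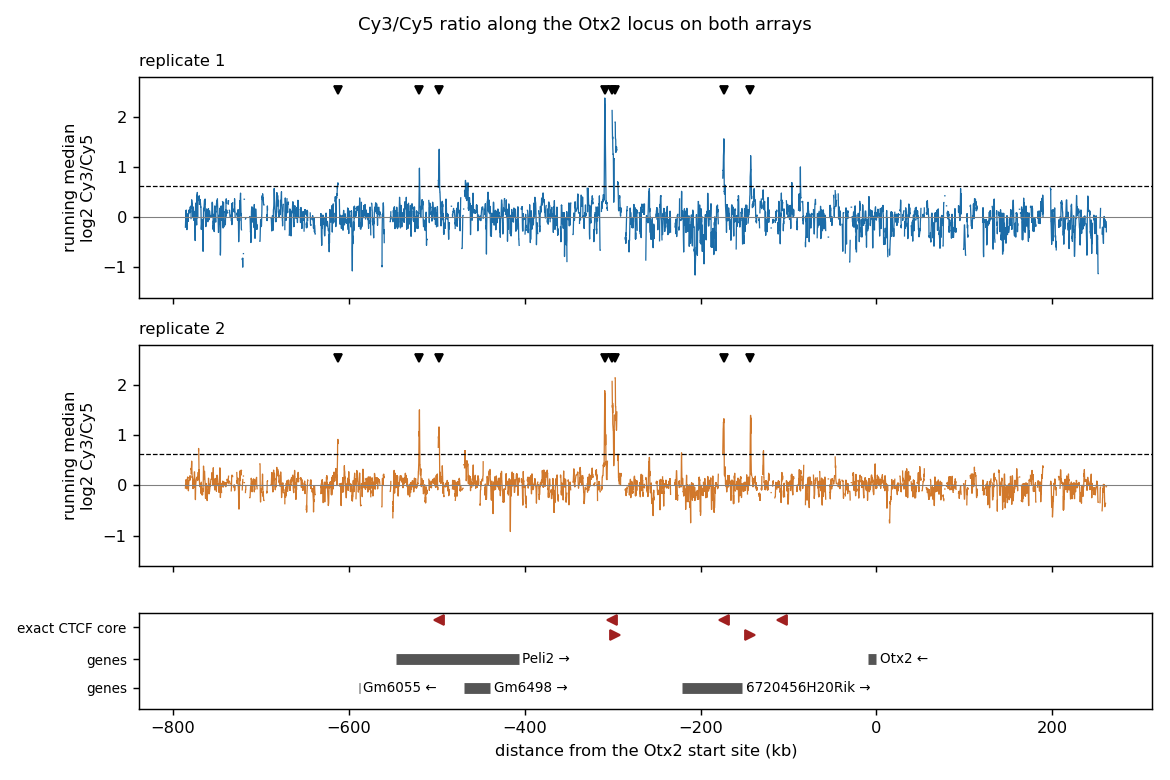
Running median of log2 Cy3/Cy5 along the Otx2 locus against distance from the Otx2 start site in kb, for replicate 1 (top) and replicate 2 (middle), with a dashed line at the 0.63 threshold, triangles at the 8 regions and breaks where probes are over 1 kb apart; the lowest panel shows protein-coding genes with their strand and the 6 exact CTCF core matches pointing along their strand. The tallest signals on both arrays are the group near -300.7 kb, and no triangle stands to the right of -143.3 kb. The dashed line is the threshold for both arrays together. For calls on 1 array alone the threshold was 0.91 on replicate 1 and 0.65 on replicate 2.

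The question asked of the locus was where the channels differ by more than the arrays differ from each other. Ratios were centred on the median of each array, so 0 stands for that median. Both arrays had the same dye order, so the test cannot separate a channel difference from a dye bias that they share. At an adjusted p under 0.05 (limma, 2 arrays), 33 of 955 windows were higher in Cy3, or 3.46%, against 3.86% of all windows on the array. In the other direction 18 windows were higher in Cy5, or 1.88%, against 5.86% of all windows. At an unadjusted p under 0.05 there were 61 windows above 0 and 98 below. The locus share on the Cy3 side was thus near that of the array, and the calls are described below by their place and size rather than their number.

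The windows higher in Cy3 had a median log2 ratio of 0.59 and ranged from 0.39 to 2.08. Of these, 11 reached 1 log2 unit or more (1.15% of the locus, 1.13% of all windows). No window of the locus was at -1 or less (0.0401% of all windows). Those higher in Cy5 had a median of -0.47 and ranged from -0.87 to -0.41, so their sizes covered a narrower span than those on the Cy3 side. The p-values rest on only 2 flasks and arrays, and that number limits the precision of every value. In limma each window's spread is blended with that of all windows (6.99 prior degrees of freedom). A called window therefore need not have a small spread of its own.

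Region 4 (chr14:48978197-48979359, 1163 bp) had a mean log2 ratio over its 17 probes of 1.63 on replicate 1 and 1.40 on replicate 2 (mean 1.52 ± 0.17, SD, n = 2). It had the highest running median of the locus, 2.13, and lay 309.0 kb from the Otx2 start in sequence with no annotated gene. Its best window, chr14:48978000-48978999, was at 1.73 with an adjusted p of 9.9e-05 (limma). It is the 1 region without a CTCF core match within 500 bp of its summit, so no sequence is shown for it.

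Region 5 (chr14:48986559-48988104, 1546 bp) had means of 1.53 and 1.38 over 20 probes (mean 1.45 ± 0.11, SD, n = 2). It held the highest window of the locus, chr14:48986000-48986999, which read 2.18 on replicate 1 and 1.99 on replicate 2 from 5 probes (adjusted p = 8.8e-05, limma). The nearest probe below its lower edge ended 1953 bp away, so how far the region extends on that side was not measured. It held 2 CTCF core matches, both on the minus strand, and the exact one shown above lay 320 bp from the summit.

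Region 6 (chr14:48988771-48992236) was the longest of the locus at 3466 bp. Its 38 probes averaged 1.48 and 1.44 on the 2 arrays (mean 1.46 ± 0.03, SD, n = 2), and every one of them was above 0 on both. On each array alone it fell into 2 pieces, chr14:48990141-48992116 on both arrays and a shorter one, chr14:48988891-48989250 on replicate 1 and chr14:48988771-48989250 on replicate 2. The exact match shown above lay on the plus strand 26 bp from its summit.

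Regions 4 to 6 lay within 14 kb, between the 3′ end of Peli2 and the start of 6720456H20Rik. In the 50 kb from chr14:48950000-48999999, which holds these regions, 11 of 43 windows were higher in Cy3 (array share 3.86%). The mean over its windows was 0.37 on replicate 1 and 0.35 on replicate 2. The means of the other 50 kb bins of the locus lay between -0.15 and 0.08. The longest run of consecutive tested windows called higher in Cy3 had 8 windows, from chr14:48986000-48986999 to chr14:48993000-48993999, and took in regions 5 and 6 and the window just past region 6. Within region 6, chr14:48989000-48989999 read 1.19 and 1.31, chr14:48990000-48990999 read 1.68 and 1.71, and chr14:48991000-48991999 read 1.55 and 1.32. With the best windows of regions 4 and 5 these were the 5 highest windows of the locus, each above 1 log2 unit on both arrays. The annotation also places a miRNA gene, AC171241.1 (chr14:48984012-48984077), between regions 4 and 5, but no probe covered it.

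**Figure D2:**
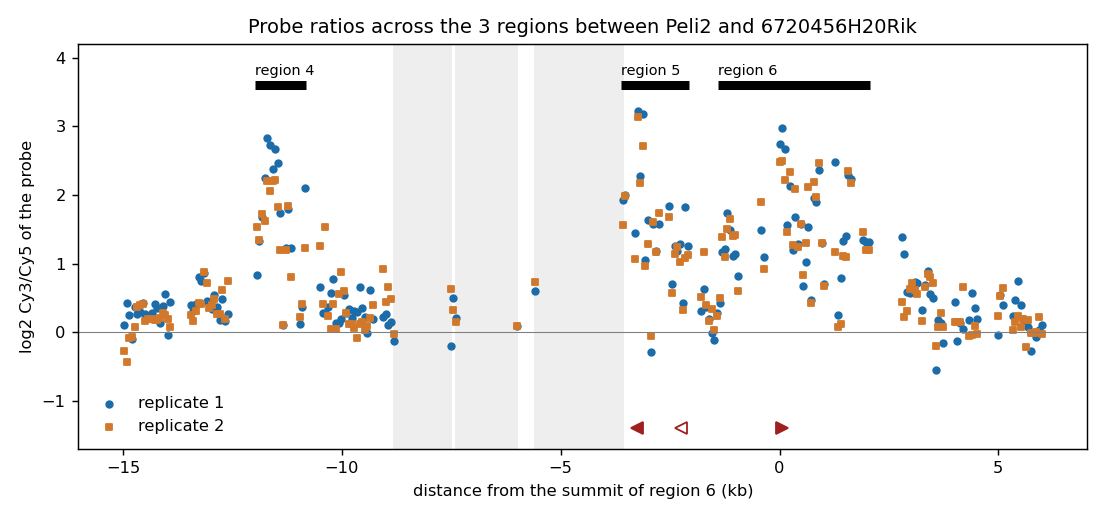
Log2 Cy3/Cy5 of single probes on replicate 1 (circles) and replicate 2 (squares) against distance from the summit of region 6 in kb. Black bars mark regions 4, 5 and 6, and grey bands gaps of at least 1 kb between neighbouring probe midpoints. Triangles mark the CTCF core matches along their strand (filled exact, open 1 mismatch). Both arrays rise at the same places, and region 4 has no triangle.

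Regions 2 and 3 lay in introns of Peli2, which encodes an E3 ubiquitin ligase of the Pellino family that acts in innate immune signalling. Region 2 (chr14:48767000-48767539) had means of 0.94 and 1.34 over 9 probes (mean 1.14 ± 0.28, SD, n = 2), the widest gap between the arrays among the 8 regions. Its CTCF core match began just past the end of the region, 51 bp from the summit. Region 3 (chr14:48788894-48790346) had means of 1.04 and 0.98 over 21 probes (mean 1.01 ± 0.04, SD, n = 2), and its exact match lay 87 bp from the summit.

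Region 7 (chr14:49112478-49114026) lay in an intron of 6720456H20Rik. Its 23 probes averaged 1.07 on replicate 1 and 1.03 on replicate 2 (mean 1.05 ± 0.02, SD, n = 2), and the exact match lay 7 bp from the summit. Region 8 (chr14:49143533-49144672), between that gene and Otx2, had means of 1.03 and 1.1 over 19 probes (mean 1.07 ± 0.05, SD, n = 2). It was the region nearest to Otx2, and its exact match lay on the plus strand 53 bp from the summit.

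Region 1 (chr14:48674410-48675108) was the weakest, with means of 0.86 and 1.08 over 8 probes (mean 0.97 ± 0.16, SD, n = 2) and a running median of 0.81. It was called on both arrays together and on replicate 2 alone, but not on replicate 1 alone, where its running median of 0.69 fell short of that array's threshold of 0.91. The other 7 regions were called on each array alone. The best window of each of the 8 regions was past the test, with adjusted p-values from 8.8e-05 to 0.0026 (limma). These windows were picked for the highest mean inside regions called on the same arrays, so their p-values are no separate support for the regions.

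Ratios beside the regions that stood alone were lower, as the calling threshold requires of sequence outside a region. In the 2 kb on either side, probes averaged 0.03 and 0.21 next to region 2, 0.14 and 0.09 next to region 3, and 0.26 and 0.13 next to region 8. Next to region 7 the flanks were at 0.45 and 0.27. The 8 regions together covered 11556 bp, or 1.1% of the interval, with a median length of 1308 bp.

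**Figure D3:**
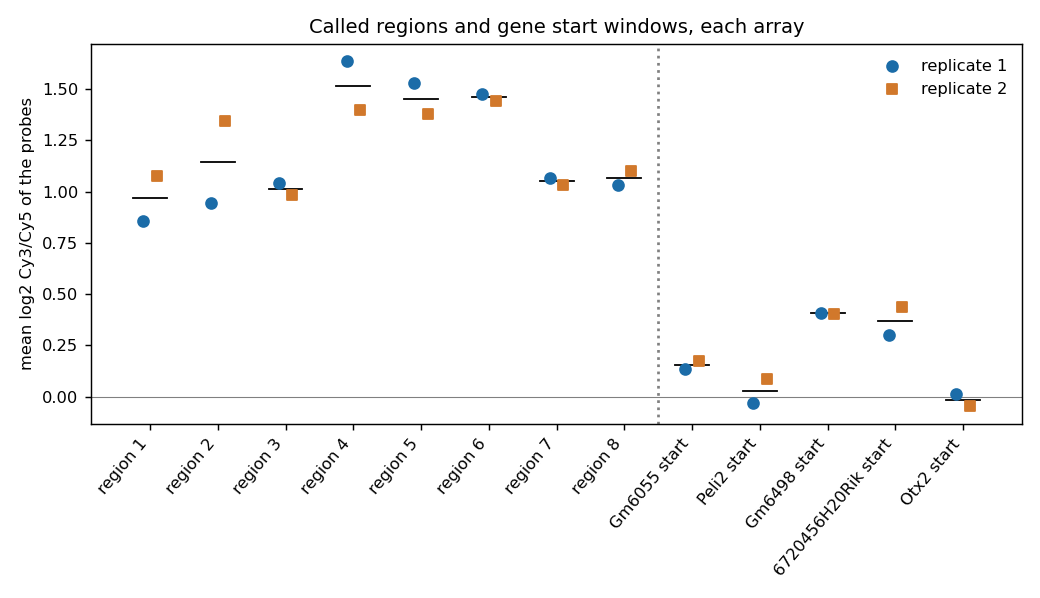
Mean log2 Cy3/Cy5 of the probes in each of the 8 called regions (left of the dotted line) and in the 1 kb window of each protein-coding gene's start (right), with replicate 1 as circles, replicate 2 as squares and the mean of both as a bar. Every region lies above every gene start window on both arrays, which follows from choosing the regions by a high ratio. Otx2 sits beside 0.

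The channels were also read separately, as the median processed signal of a region's probes over the median of the locus on the same array. The regions were chosen for a high Cy3/Cy5 ratio, so a higher fold in Cy3 than in Cy5 follows from that choice. In Cy3 this was between 1.59-fold and 5.28-fold across the 8 regions and both arrays. In Cy5 it was between 0.68-fold and 2.05-fold. Region 4 read 3.54-fold and 2.58-fold in Cy3 against 1.05-fold on both arrays in Cy5. Region 8 read 1.98-fold and 1.59-fold in Cy3 and 0.80-fold and 0.68-fold in Cy5. In regions 1, 2, 4, 6 and 7 both channels were above the locus median on both arrays, in region 1 and region 4 by little in Cy5.

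**Figure D4:**
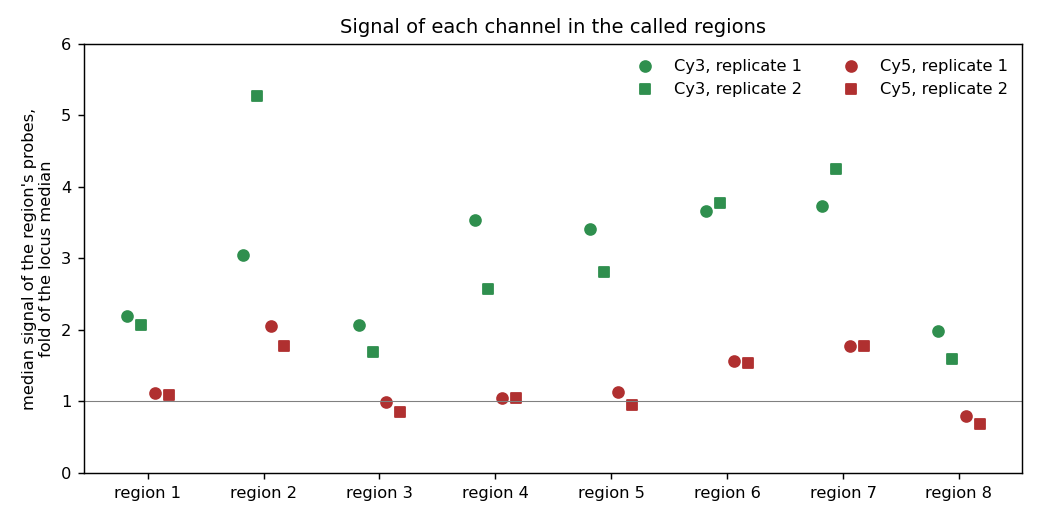
Median processed signal of the probes in each region, as fold of the locus median of the same channel and array (axis from 0, line at 1), in Cy3 (green) and Cy5 (red), with replicate 1 as circles and replicate 2 as squares. Cy3 lies above Cy5 in every region on both arrays, which follows from choosing the regions by this ratio. Region 2 on replicate 2 is the highest at 5.28-fold.

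At Otx2 itself no window passed the test in either direction, and the mean over the gene was within the spread of the arrays around 0. Over the gene (chr14:49277354-49287319, minus strand, ENSMUSG00000021848.9) 159 probes averaged -0.03 on replicate 1 and 0.02 on replicate 2 (mean -0.01 ± 0.03, SD, n = 2). Its 11 windows ranged from -0.25 to 0.15. The annotation gives start sites in 5 of these windows.

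The window of the outermost starts, chr14:49287000-49287999, read 0.02 and -0.05 (adjusted p = 0.942, limma). The window of an inner start, chr14:49284000-49284999, was the lowest of the 5 at -0.22 and -0.25 (adjusted p = 0.176, limma). The remaining 3 were at 0.14, 0.04 and 0.15, with adjusted p-values of 0.419, 0.838 and 0.408 (limma). A p that misses the threshold does not show that the channels were equal there.

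Within 50 kb of Otx2 there were 107 tested windows with a median of -0.06 (array shares of calls 3.86% in Cy3 and 5.86% in Cy5). In this stretch 1 window was higher in Cy3, chr14:49240000-49240999, with 0.47 and 0.42 on the arrays (adjusted p = 0.0304, limma), and it held a CTCF core match with 1 mismatch. In the same stretch 5 windows were higher in Cy5, the lowest of them chr14:49302000-49302999 at -0.73 and -0.62 (adjusted p = 0.0065, limma). After region 8 no region was called over the remaining 405.3 kb of the interval, and the next one on the array began 460.4 kb away. With normexp background correction and with loess, a short stretch there on the 5′ side of Otx2, chr14:49398733-49398912, was also called (running medians of 0.47 and 0.49). On the 3′ side, chr14:49240325-49240504 was called with normexp (0.51) and chr14:49240325-49240804 with the GC trend removed (0.75). Nearer region 8, chr14:49158399-49158612 was called with normexp (0.47) and chr14:49158399-49158944 with the GC trend removed (0.54). Replicate 2 alone called chr14:49158553-49158884 (0.69).

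The stretch beyond region 8 held 373 tested windows, of which 5 were higher in Cy3 and 10 higher in Cy5. The highest of them, chr14:49158000-49158999, read 0.53 and 0.59 (mean 0.56, adjusted p = 0.0137, limma). The 582 windows up to the end of region 8 held 28 higher in Cy3 and 8 higher in Cy5. Because the split is set at the last region, all 18 called windows that overlap a region fall on that side by construction, and nothing is read from the difference (array shares 3.86% and 5.86%). CTCF core matches with at most 1 mismatch stood in 23 windows beyond region 8 and in 41 up to it.

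Peli2 (chr14:48740544-48880558, plus strand) had 8 of 136 windows higher in Cy3 and 0 higher in Cy5 (array shares 3.86% and 5.86%). Its body averaged 0.06 on replicate 1 and 0.05 on replicate 2. The window of its start, the most GC-rich of the gene starts at 67.2% GC, was at -0.03 and 0.08 (adjusted p = 0.897, limma). Inside Peli2 lies Gm6498 (chr14:48818391-48848088, plus strand), a gene model with no role given here, so every probe in it belongs to both genes. It held 5 of the 8 windows, outside any region, and its start window read 0.41 and 0.40 from 3 probes (adjusted p = 0.0403, limma).

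The highest of those 5 windows was chr14:48819000-48819999 at 0.53 and 0.66 (adjusted p = 0.0118, limma). A stretch inside it, chr14:48819351-48819651, was called as a region on replicate 2 alone. The start window of 6720456H20Rik (chr14:49065803-49134834, plus strand) was at 0.30 and 0.44 (adjusted p = 0.0581, limma). The body of the gene averaged -0.08, with 3 of 66 windows called in each direction (array shares 3.86% in Cy3 and 5.86% in Cy5). The start window of Gm6055 was at 0.14 and 0.18 (adjusted p = 0.352, limma).

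In all, 18 of the 33 windows higher in Cy3 overlapped a region and 15 did not. Those 15 had a median of 0.44 and a highest value of 0.59, so none of them reached the level of the regions' best windows. Besides the 8 regions, replicate 2 alone gave 3 short calls, chr14:48516280-48516579, the one in Gm6498 and chr14:49158553-49158884. Just under the joint threshold lay chr14:48992933-48993586, next to region 6, with a running median of 0.62.

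The CTCF core with at most 1 mismatch was found 74 times in the locus, 31 times on the plus and 43 times on the minus strand, and 6 of these matches were exact. It stood in 6.7% of the locus windows and in 7.82% of all windows on the array, and the exact core in 0.63% and 0.54%. Of the 33 windows higher in Cy3, 11 (33.33%) held a match, as did 34.14% of all such windows on the array. Of the 18 windows higher in Cy5, 0 held one, against 4.11% of such windows on the array, a share at which a count of 0 in 18 says little. These are descriptions of letters in the sequence, not of CTCF binding, which was not measured on these arrays.

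A match stood within 500 bp of the summit in 7 of the 8 regions (87.5%), and an exact one in 5 (62.5%). Over all 210 regions of the array these shares were 63.33% and 19.52%, and no test was made of the difference. From region 1 to region 8 the best matches read minus, minus, minus, none, minus, plus, minus, plus. The distance from summit to match ran from 7 bp in region 7 to 320 bp in region 5.

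Of the 6 exact matches 5 were at regions 3, 5, 6, 7 and 8. The remaining one, at -107.6 kb from the Otx2 start, lay in the window chr14:49179000-49179999, which read 0.21 and 0.14 (adjusted p = 0.298, limma). The window of region 7 with the same core bases, chr14:49113000-49113999, read 1.23 and 1.20 (adjusted p = 0.000291, limma). The same 12 bases were therefore found in windows whose means were 0.18 and 1.22. Among the 56 windows that held a match outside the regions the median was 0.01, the range -0.26 to 0.59, and 3 were higher in Cy3.

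Agreement between the replicates rested in part on the called windows, which were chosen for a mean far from 0 on the same arrays. Across the 955 windows Pearson r between the arrays was 0.668 and Spearman rho 0.476, and without the 33 windows higher in Cy3 r was 0.417. Neighbouring windows share fragments, and r is given as a description only. The sign was the same on both arrays in 282 windows above 0 and 345 below, and differed in 328. The SD between the arrays had a median of 0.0968 per window and a 90th percentile of 0.247.

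**Figure D5:**
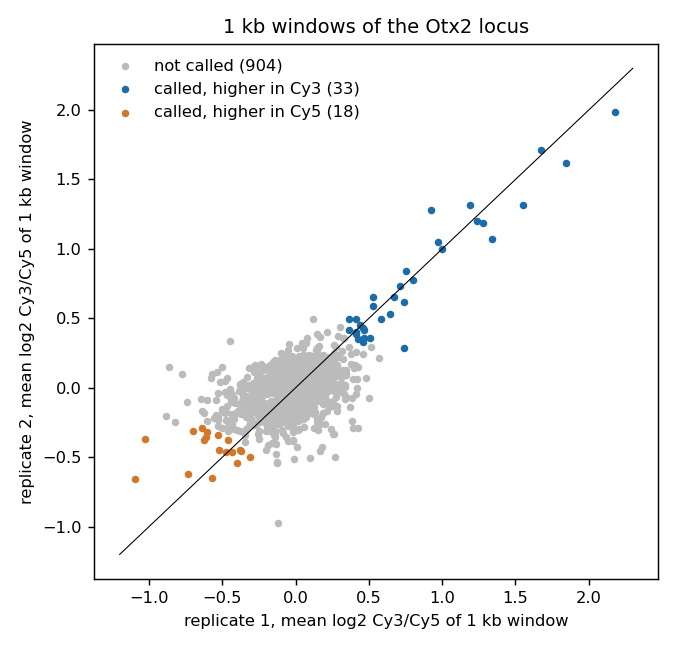
Mean log2 Cy3/Cy5 of each 1 kb window of the Otx2 locus on replicate 1 (horizontal) against replicate 2 (vertical), with 33 windows called higher in Cy3 in blue, 18 called higher in Cy5 in orange, 904 not called in grey and the line of equal values. The blue points run along the line up to 2.18 and 1.99, while the grey cloud is wide on both axes.

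Base composition moved with the ratio. Over the 904 windows that were not called, r between GC content and the mean log2 ratio was 0.511, and over all 955 it was 0.392. Median GC content in those higher in Cy5 was 39.85% (30.7% to 44.0%) and a median of 6.5 probes, while windows higher in Cy3 had 45.3% (40.6% to 55.2%) and 13 probes, and the median of all windows was 44.0%. With the GC trend removed, 4 of the 18 windows higher in Cy5 and 22 of the 33 higher in Cy3 were still called, and all 8 regions.

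The deepest window on the Cy5 side, chr14:48724000-48724999, read -1.09 and -0.65 from 5 probes (adjusted p = 0.0054, limma). Next came chr14:49081000-49081999 in an intron of 6720456H20Rik, at -1.02 and -0.37 from 4 probes (adjusted p = 0.0283, limma). The window chr14:49257000-49257999, on the 3′ side of Otx2, was at -0.57 and -0.65 (adjusted p = 0.0096, limma). The window chr14:49389000-49389999 had a mean of -0.55 but read -0.12 and -0.98 on the arrays and was not called (adjusted p = 0.0948, limma). The calls of the windows higher in Cy5 did not hold under every alternative. The deepest window was at -0.14 with normexp background correction (adjusted p = 0.361, limma, the highest of its alternatives, which went down to 9.18e-09 with mode centring), and none of chr14:48724000-48724999, chr14:49081000-49081999, chr14:49257000-49257999 and chr14:49302000-49302999 was called with a trended and robust variance prior.

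Set beside its neighbours, the locus had fewer calls on the Cy5 side than the distal Otx2 flank of the same tiled segment, with 18 of 955 windows (1.88%) against 63 of 766 (8.22%), but not fewer than the Bmp4 segment of the same chromosome, with 11 of 855 (1.29%). Its window median was -0.02 and that of the flank -0.12, and their GC contents were 44.0% and 40.5%. The part of base composition in the gap to the flank was not tested. On the Cy3 side the shares were 3.46% and 3.52%, and 3.39% in the Bmp4 segment. The locus had 7.62 regions per Mb, the distal flank 13.71, the Bmp4 segment 9.0 and the whole array 12.04, and these densities were not tested against each other.

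Most probes in the locus were well above background in both channels. The median spot signal was 48.25 and 63.2 times the local background in Cy3 and 21.7 and 25.9 times in Cy5, for replicates 1 and 2. Of the locus probes 175 (1.6%) were saturated in some channel and 568 (5.18%) were not well above background in some channel. Among the regions' probes, 3 in regions 4 and 5 were dim and 1 in region 3 was saturated. Gaps of at least 1 kb between the midpoints of neighbouring probes numbered 66 and added up to 113.4 kb, the largest of 6246 bp. Apart from the probe ends at their edges, a site inside them was not measured.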

How the data were processed

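Rad21 ChIP and input DNA of RAG cells were hybridised together on 2 Agilent arrays, 1 per replicate. The intensities the authors deposited came from Feature Extraction 10.5.1.1, which subtracts local background with spatial detrending and applies a linear dye factor to each channel. The deposited log10 ratio of Cy5 over Cy3 was used only to check the ratio computed here, and the deposited 0 or 1 quality marks to leave out 4 outlier spots on replicate 1 and 23 on replicate 2. The log2 table the authors deposited was made with Ringo per the methods, with no parameters given. Its rows were matched to probes by order, which gave r of 0.964 and 0.962 with a running median (within 300 bp) of log2 Cy3/Cy5. Its direction is therefore Cy3 over Cy5, while its centring is not given in the sources used here.

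Here log2 Cy3/Cy5 was taken from the processed intensities and the median of each array subtracted, without loess. Windows of 1 kb needed 3 or more probes. Their means were compared with 0 in limma 3.58.1 under R 4.3.3, two-sided, with Benjamini-Hochberg adjustment over all 14947 windows at 0.05. Regions were called from the running median within 400 bp over both arrays (at least 5 values), with a threshold at quantile 0.99 of a null distribution reflected about the mode, with at least 3 positions, joined under 600 bp apart. These settings follow Ringo from memory. Each threshold is set from values on the opposite side, so signal on the Cy3 side raises the threshold for Cy5. Genes come from GENCODE M1 on NCBIM37 (mm9). Computations used Python 3.11.15, numpy 2.4.6 and pandas 2.3.3.

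The text names all protein-coding genes of the interval, all regions higher in Cy3, the windows of the Otx2 start sites and the windows furthest from 0, 5 in each direction. Other windows and the exact match outside the regions were chosen after their values were seen. The interval and these rules were chosen with earlier results of these data known. The alternatives for background used the median spot and background intensities, since mean signals were not used here. On simulated data with 14947 windows, 199 of 200 windows shifted by 1 log2 unit were recovered and 10 others were called. The simulated noise was independent between windows and arrays and drawn from the variance prior fitted by limma. It held no dye or GC bias shared by the arrays, so it checks the computation and gives no error rate for these data.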

Additional observations from a re-analysis of the deposited data

How the results depend on the processing

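The means of the 8 regions lay between 0.74 and 1.63 with every alternative set of values and on each array alone. The regions were chosen for a high ratio on these same arrays, so staying above 0 is no separate support. Regions were called anew under 14 alternatives, which did not include the deposited values, and 7 of the 8 were called in all 14. Region 1 was not called without replicate 2. The count of regions higher in Cy3 rose from 8 to 16 with normexp background correction, 14 with loess and 16 with the GC trend removed, and ran from 8 to 12 on single arrays. Added calls included chr14:49240325-49240804 on the 3′ side of Otx2 (GC trend removed, and a shorter piece with normexp), chr14:49065415-49065834 at the start of 6720456H20Rik (normexp, loess and GC trend removed) and, on the 5′ side of Otx2, chr14:49398733-49398912 (normexp and loess). Regions higher in Cy5 went from 0 to 1 with a null quantile of 0.98 and were 0 on each array alone. The count of 33 windows higher in Cy3 ran from 21 with the deposited values to 43 with normexp background correction. It was 22 with the GC trend removed, 25 with loess and 36 with mode centring. The 18 windows higher in Cy5 became 4 with loess, 110 with mode centring, 2 with probes well above background only, 4 with the GC trend removed, 3 with the deposited values, 33 in 500 bp windows, 34 in 2 kb windows and 0 with a trended and robust variance prior (38 higher in Cy3). Windows at 1 log2 unit or more numbered 9 to 11 on single arrays.

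The locus median of -0.019875 became -0.005762 with normexp, -0.014109 with no background correction, 0.004051 with loess, -0.083097 with mode centring, -0.001015 with probes well above background, -0.027363 without saturated probes, -0.001703 with the GC trend removed and 0.014583 with the deposited values, and lay between -0.015245 and -0.011408 on single arrays. Its sign is thus not settled. The mean over Otx2 was -0.069004 with mode centring and ranged from -0.029893 to 0.018329 on single arrays. Over the alternatives of the single named windows, 195 values were counted as unchanged, 15 lost the call, 7 gained one and 0 reversed a call. Values counted as unchanged include sign changes in windows that were not called. The start window of Peli2 went from 0.03 to -0.06 with loess, and that of the outermost Otx2 starts from -0.02 to 0.01. The count also includes values from single arrays, which have no test and so no call to keep. Of the losses, 12 were in windows higher in Cy5: chr14:48724000-48724999 lost its call under 3 alternatives, chr14:49081000-49081999 under 4, chr14:49257000-49257999 under 2 and chr14:49302000-49302999 under 3. The start window of Gm6498 lost its call with loess, with dim probes left out and with the GC trend removed, where its adjusted p was highest at 0.138 (limma). That of 6720456H20Rik gained a call under 5 alternatives, with an adjusted p as low as 0.0295 (limma). Among the Otx2 start windows 1, chr14:49284000-49284999, was called under 1 alternative, mode centring (adjusted p = 0.0499, limma). For the CTCF core, 2 alternatives chosen after seeing the data gave 5 of 8 regions with no mismatch and 6 of 8 within 250 bp of the summit. Leaving out an array leaves no test, and the causes of these shifts were not tested. No paired analysis was possible because both arrays belong to the only group.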
